A study of Homo sapiens with 9 samples.

Results

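Hypoxia-inducible genes and the glucose transporter gene SLC2A3 (GLUT3) were followed across all libraries of cells given 2-APB or SKF-96365 and of their controls. The set was 10 genes, chosen by symbol from the 61093 genes of the deposited table through their Ensembl identifiers: SLC2A3, NDRG1, P4HA1, P4HA2, CA9, VEGFA, ADM, BNIP3, EGLN3 and HIF1A. Each was found once, and 8 of the 10 passed the filter on low values, along with 17492 of all genes. CA9 and EGLN3 did not pass it.

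The cell line on the labels is HepG2, from a human hepatocellular carcinoma, and RNA-seq was done on 9 libraries, 3 in each of 3 groups. The 2-APB group has that compound as its treatment label and is the agonist arm of the series, the SKF-96365 group is the inhibitor arm, and the control group has a treatment label of NULL. Titles of the 2-APB libraries read ABP and their value columns carry the name TRPV2, a cation channel. No dose, exposure time, vehicle or oxygen tension is given in the labels, and separate cultures within a group are not mentioned, so p-values measure only the spread between these samples. Each comparison below sets 3 libraries against 3 unless libraries are said to be left out, and both drug comparisons share the same 3 controls.

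Cells sense low oxygen mainly through hypoxia-inducible factor (HIF), a pair of an alpha subunit (HIF1A or EPAS1) and ARNT. When oxygen is present, prolyl hydroxylases of the EGLN family mark the alpha subunit, and the VHL ubiquitin ligase sends it to the proteasome, so the factor is controlled largely at the level of its protein. When the alpha subunit is spared, HIF binds DNA at sites with the core ACGTG or GCGTG and raises genes of glucose uptake, glycolysis, pH control, collagen maturation, vessel growth and mitophagy, a program that is often active in liver tumours.

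The libraries did not fall cleanly into their labelled groups. Across the 17492 tested genes, the log2 profile of control 3 correlated at r = 0.988 with SKF-96365 2 and r = 0.986 with SKF-96365 3, against r = 0.957 with control 2, the lowest value of any pair. SKF-96365 1 correlated at r = 0.988 with 2-APB 3. SKF-96365 2, SKF-96365 3 and control 3 were also the 3 lowest libraries for 14 of 15 proliferation genes, beside 17.6% of tested genes. The summed level of those 15 genes was 54003, 55434 and 65632 normalized counts in 2-APB 1 to 3, 53162, 39445 and 41523 in SKF-96365 1 to 3, and 69846, 73186 and 39079 in control 1 to 3. TOP2A, a DNA topoisomerase and the most abundant of them, was the gene whose lowest 3 libraries differed. Its log2 fold change was -0.42 ± 0.19 (SE) in SKF-96365 against control. The replication genes CDC6 and CDC45 had -0.85 ± 0.49 and -0.57 ± 0.34 in that comparison. The part of this split in the results below was not tested. In bulk RNA, fewer cells of a type and less RNA per cell cannot be told apart.

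The hepatocyte label was not borne out by its defining markers. ALB reached at most 11.8 normalized counts, AFP 8.87, HNF4A 2.58 and APOA1 1.75 in any library, and 1 of 9 hepatocyte markers, SERPINA1, passed the filter. SERPINA1 was also the only 1 with a mean of at least 50. Summed, the 9 markers had 267 to 347 in 2-APB libraries, 332 to 422 in SKF-96365 libraries and 219 to 554 in control libraries. All 6 mesenchymal markers passed it, with VIM and SPARC highest. SPARC and COL1A1 each had a log2 fold change of 0.29 in SKF-96365 against control, and SERPINA1 had 0.09. Endothelial markers summed to 11.2 to 29.6 normalized counts in 2-APB libraries, 11.3 to 27.1 in SKF-96365 libraries and 15.8 to 107.5 in control libraries. The leukocyte marker CD3E was at 0 in all 9 libraries, and PTPRC reached at most 3.08. CDH5 and CD14, the highest endothelial and leukocyte markers by mean, had means of 7.03 and 51.6 normalized counts. The cells are therefore called by their label only.

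The 5′ ends of member genes are shown first, because HIF acts through a short core in such regions. Windows of 7 of the 10 genes, from 250 bases before to 50 bases after a listed start, were read from RefSeq promoter tables of GRCh38.p14. The windows of SLC2A3, NDRG1 and VEGFA were not used here. Printed below are BNIP3 (chr10:131981874-131982173, minus strand) and P4HA1 (chr10:73096817-73097116, minus strand), which were well expressed, and CA9 (chr9:35673678-35673977, plus strand) and EGLN3 (chr14:33951025-33951324, minus strand), which were near 0. Each reads 5′ to 3′ along the gene, and capitals mark ACGTG or GCGTG on either strand, so that a core on the opposite strand reads CACGT or CACGC.
BNIP3: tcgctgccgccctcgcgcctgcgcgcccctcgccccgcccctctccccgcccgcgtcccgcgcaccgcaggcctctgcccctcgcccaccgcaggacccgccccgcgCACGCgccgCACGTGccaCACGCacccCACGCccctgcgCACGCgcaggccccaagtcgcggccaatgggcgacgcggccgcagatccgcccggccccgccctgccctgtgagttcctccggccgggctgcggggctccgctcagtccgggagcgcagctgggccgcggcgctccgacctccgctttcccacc
P4HA1: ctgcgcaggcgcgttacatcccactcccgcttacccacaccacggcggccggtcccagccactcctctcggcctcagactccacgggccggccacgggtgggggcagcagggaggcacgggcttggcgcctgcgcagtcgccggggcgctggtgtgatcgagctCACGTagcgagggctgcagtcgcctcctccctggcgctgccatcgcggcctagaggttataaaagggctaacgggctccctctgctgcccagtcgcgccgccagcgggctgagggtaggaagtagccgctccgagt
CA9: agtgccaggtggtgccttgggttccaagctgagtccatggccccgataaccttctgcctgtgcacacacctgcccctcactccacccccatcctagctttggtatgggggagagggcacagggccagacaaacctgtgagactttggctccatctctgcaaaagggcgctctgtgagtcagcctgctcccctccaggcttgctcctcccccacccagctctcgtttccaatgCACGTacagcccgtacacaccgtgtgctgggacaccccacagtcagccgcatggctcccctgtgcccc
EGLN3: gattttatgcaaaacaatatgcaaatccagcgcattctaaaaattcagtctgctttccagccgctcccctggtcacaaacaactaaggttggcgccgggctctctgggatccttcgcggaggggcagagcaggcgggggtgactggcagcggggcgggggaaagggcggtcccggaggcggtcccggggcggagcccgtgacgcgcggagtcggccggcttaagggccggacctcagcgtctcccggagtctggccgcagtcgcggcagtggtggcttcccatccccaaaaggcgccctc

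BNIP3 held the most cores of these windows, with an ACGTG on each strand within 1 CACGTG palindrome, 134 and 133 bases upstream of the start, and 4 matches to GCGTG around it. P4HA1 had 1 ACGTG, 86 bases upstream, and CA9 had 1, 18 bases upstream. ADM had 1 GCGTG and no ACGTG. HIF1A, with 2 listed starts, had 1 GCGTG before 1 of them. P4HA2 and EGLN3 had neither core in the window. In all, 3 of 7 genes held ACGTG and 5 of 7 held either core. Among 35116 promoters of the same length, 21.4% held ACGTG, 36.5% held GCGTG, 48.4% held either and 7.26% held CACGTG. Each match is a run of letters and was not tested as a binding site.

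**Figure D1:**
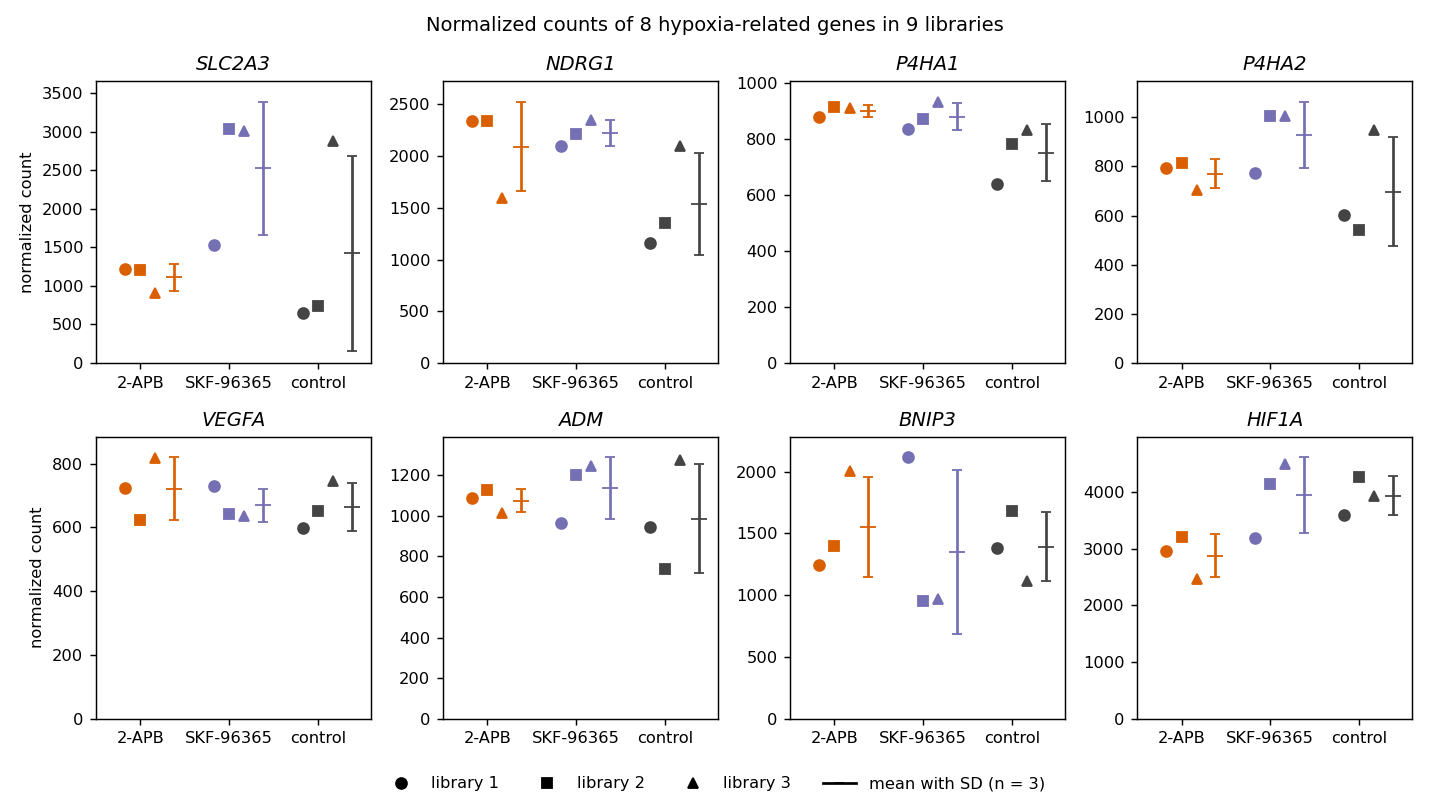
Normalized counts (y axes, linear, from 0) of the 8 genes that passed the filter, in 3 libraries each of 2-APB, SKF-96365 and control cells (x axes), with the group mean and SD (n = 3) beside the points. SLC2A3 lay at 3039, 3005 and 2876 in SKF-96365 2, SKF-96365 3 and control 3, and at most 1529.5 in the other libraries.

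No member passed the test in any comparison. With limma and a Benjamini-Hochberg adjusted p under 0.05, 0 of 8 members were called in each of the 3 comparisons, beside 0% of the 17492 tested genes. At an unadjusted p under 0.05, SKF-96365 against control held 2 of 8 members, SLC2A3 and NDRG1, beside 4% of tested genes. 2-APB against control held 1, HIF1A, beside 2.8%, and 2-APB against SKF-96365 held 2, SLC2A3 and HIF1A, beside 7.3%. Over the 3 groups, the smallest F-test p of a member was 0.0208, for HIF1A, and its adjusted p was at least 0.862, as for all 8. Without control 3 and SKF-96365 1, which stood with other groups, SKF-96365 against control held 5 of 8 members at an adjusted p under 0.05 (SLC2A3, NDRG1, P4HA2, ADM and BNIP3), beside 27.6% of tested genes, and 2-APB against SKF-96365 held 4 (SLC2A3, HIF1A, BNIP3 and P4HA2), beside 13.1%. Those p-values are too small, because the left-out libraries were picked from the data. Since the members were chosen with earlier results of these data known, these counts are descriptions.

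The direction of the 8 members was mixed. In SKF-96365 against control, 6 had a positive and 2 a negative log2 fold change, with a median of 0.23, beside a median of -0.00 and 49.5% positive over all tested genes. In 2-APB against control, again 6 were positive and 2 negative, with a median of 0.15, beside -0.00 and 49.7%. In 2-APB against SKF-96365, 3 were positive and 5 negative, with a median of -0.09, beside 0.01 and 51%. With 1 library left out these medians were 0.16 to 0.37, 0.065 to 0.35 and -0.17 to -0.0098, with both upper values of the drug-against-control comparisons reached without control 3. Control 1 and control 2 were the lowest 2 of the 9 libraries in 5 of the 8 members, beside 8.43% of tested genes. These were SLC2A3, NDRG1, P4HA1, P4HA2 and ADM. Both drug comparisons share these controls, and their part in the medians was not tested. The levels rested on 532 to 4216 reads per gene and library in the 8 libraries used for whole reads. This gives a counting error of 4.34% down to 1.54%. That covers counting error only, since amplified reads with no molecular identifiers may be copies of 1 molecule.

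Levels per kilobase of merged exon set HIF1A highest, with a mean over 9 libraries of 696 normalized counts per kb and a range of 478 to 872. ADM followed with a mean of 392 per kb (272 to 469). SLC2A3 (274, from 106 to 493), P4HA1 (273, from 207 to 301) and BNIP3 (268, from 179 to 397) came next, and NDRG1 had 199 (119 to 240). The ranges of HIF1A and ADM did not overlap, and those of ADM, SLC2A3, P4HA1 and BNIP3 did, as did those of NDRG1 and the last 3. P4HA2 was lower, at 93.9 per kb (63.5 to 118), and VEGFA at 47.5 (41.3 to 56.6). CA9 and EGLN3 were at 0.871 and 0.208 per kb. The merged length counts exons of every annotated isoform, so a gene with many isoforms is set lower on this scale than by its main transcript.

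SLC2A3 (ENSG00000059804, chr12:7919230-7936275, minus strand; GENCODE 29 coordinates, GRCh38) encodes GLUT3, a high-affinity glucose transporter best known from neurons and raised in many tumours. It had 1224, 1203 and 903 normalized counts in 2-APB 1 to 3, 1529.5, 3039 and 3005 in SKF-96365 1 to 3, and 655, 734 and 2876 in control 1 to 3. The highest library stood 4.64 times above the lowest, the widest span of the 8. The high libraries, SKF-96365 2, SKF-96365 3 and control 3, stood apart from the other 6, and the control group spanned nearly the whole range. Means were 1110.3 ± 179.6 in 2-APB, 2524 ± 862 in SKF-96365 and 1422 ± 1260.2 in control libraries (SD, n = 3 each).

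For SLC2A3 the log2 fold change of SKF-96365 against control was 1.11 ± 0.49 (SE), with a 95% interval of 0.02 to 2.20, an unadjusted p of 0.0464 and a limma adjusted p of 0.789. In 2-APB against control it was -0.02, with an interval of -1.11 to 1.07, a width that covers large differences either way. All 3 libraries given 2-APB lay below all 3 given SKF-96365, as did those of 8.79% of tested genes (no member lay above, beside 8.21%), and that log2 fold change was -1.13 ± 0.49 (SE; adjusted p = 0.684). The SKF-96365 difference depended on control 3: without that library it was 1.79 with an adjusted p of 0.0403, in a fit that called 0.989% of genes. Without control 1 it was 0.73. Control 3 was left out because it stood with another group, so the p of that fit is too small.

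Close copies of SLC2A3 held few counts of their own. How reads shared by copies were counted is not given in the sources used here. SLC2A14, the near-identical neighbour of SLC2A3, reached at most 1.72 normalized counts, and the highest SLC2A3 pseudogene, SLC2A3P4, reached 6.09. SLC2A1 (GLUT1), the other hypoxia-inducible transporter of the family, had a mean of 2674 normalized counts and a narrower spread. It had 2258, 2249 and 2590.4 in 2-APB libraries, 2843, 2920.4 and 2840.1 in SKF-96365 libraries, and 2344, 3044 and 2974 in control libraries. Its log2 fold change was 0.05 in SKF-96365 and -0.23 in 2-APB, each against control. Against SKF-96365 it was -0.28 in 2-APB, without overlap of the groups and with an unadjusted limma p of 0.0467, and it was not called. SLC2A1 was the only 1 of 8 tested family genes besides SLC2A3 with either trait. Over all tested genes, 8.79% had that order of groups and 7.3% had an unadjusted p under 0.05. SLC2A2, the transporter of hepatocytes, did not exceed 1.97. SLC2A13 and SLC2A11, the other genes named of the family, had log2 fold changes of 0.32 and -0.20 in SKF-96365 against control.

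The profiles most like SLC2A3 among 12373 genes with a mean of at least 50 were those of EPAS1, PER1 and PPP1R3B. Likeness was the root mean square difference of centred log2 values over the 9 libraries, and it was 0.174, 0.177 and 0.182, against a root mean square of 0.823 for SLC2A3 itself. EPAS1, which encodes the HIF-2 alpha subunit, had 2078, 2051 and 1680.2 normalized counts in 2-APB libraries, 2516, 6475 and 6423 in SKF-96365 libraries, and 1521, 1561 and 6157 in control libraries. PER1, a circadian repressor, had 189 to 273, 271 to 747 and 166 to 723 in the same order of groups. PPP1R3B, which targets a phosphatase to glycogen, had 347 to 449, 501 to 1214 and 295 to 1127. The same 3 libraries were highest in each of these genes, which the choice by likeness largely fixed, so this is no separate result. SKF-96365 2, SKF-96365 3 and control 3 were the highest 3 in 16.4% of all tested genes, and in 3 of the 8 members: SLC2A3, P4HA2 and ADM.

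**Figure D2:**
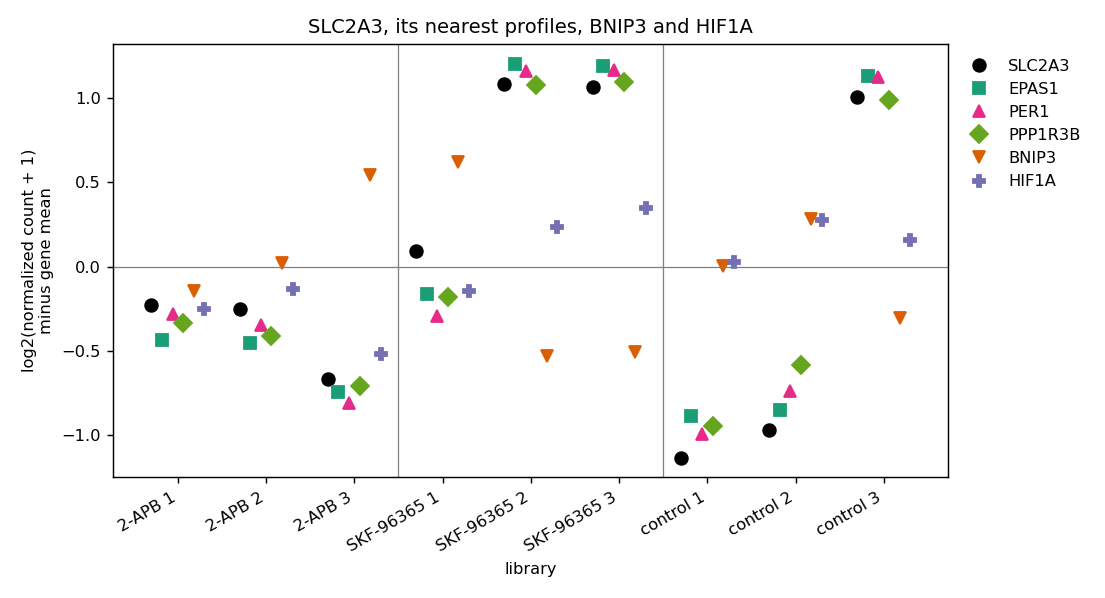
Centred log2(normalized count + 1) of SLC2A3, its 3 nearest profiles, BNIP3 and HIF1A (y axis) in each of the 9 libraries (x axis; vertical lines part the groups). SLC2A3, EPAS1, PER1 and PPP1R3B were high in SKF-96365 2, SKF-96365 3 and control 3, where BNIP3 was at its lowest. EPAS1, PER1 and PPP1R3B were chosen by likeness to SLC2A3 in these same libraries.

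NDRG1 (ENSG00000104419, chr8:133237171-133302022, minus strand) is a stress-response gene and one of the most widely used transcripts for reading out hypoxia. It had 2342, 2341 and 1591 normalized counts in 2-APB libraries, 2101, 2214 and 2353 in SKF-96365 libraries, and 1165, 1349 and 2094 in control libraries. All 3 SKF-96365 libraries lay above all controls, as in P4HA1, so 2 of 8 members did so, beside 3.26% of tested genes. The lowest SKF-96365 library and control 3 were close, at 2101 and 2094. The log2 fold change of NDRG1 was 0.58 ± 0.22 (SE; unadjusted p = 0.0239, limma adjusted p = 0.789) in SKF-96365 and 0.47 ± 0.22 (unadjusted p = 0.0565) in 2-APB, each against control. The 2-APB value was 0.72 without control 3 and 0.29 without control 1. In 2-APB against SKF-96365 it was -0.11. Its relative NDRG3 had a mean of 1221 normalized counts and log2 fold changes of 0.01 in SKF-96365 and 0.06 in 2-APB.

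P4HA1 and P4HA2 encode catalytic subunits of collagen prolyl 4-hydroxylase, which needs oxygen to stabilise the collagen helix. P4HA1 (ENSG00000122884, chr10:73007217-73096974, minus strand) had 877, 916 and 910.1 normalized counts in 2-APB libraries, 835, 872 and 932 in SKF-96365 libraries, and 639.8, 783 and 833 in control libraries. Both drug groups lay above all controls, although 835 in SKF-96365 1 and 833 in control 3 were nearly equal. P4HA1 was 1 of 8 members above all controls in 2-APB, beside 3.61% of tested genes. Its log2 fold change was 0.27 ± 0.12 (SE; unadjusted p = 0.0546) in 2-APB and 0.23 ± 0.12 (unadjusted p = 0.0882) in SKF-96365, each against control. Without control 1 these were 0.16 and 0.12. P4HA1 means were 901 ± 20.9 in 2-APB and 879.8 ± 49.2 in SKF-96365, against 752 ± 100.2 in control libraries (SD, n = 3 each).

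P4HA2 (ENSG00000072682, chr5:132191838-132295315, minus strand) had 795, 814 and 704 normalized counts in 2-APB libraries, 773, 1004 and 1007 in SKF-96365 libraries, and 602, 539.6 and 949.6 in control libraries. SKF-96365 2, SKF-96365 3 and control 3 were its highest libraries, as for SLC2A3, and the groups overlapped. Its log2 fold change in SKF-96365 against control was 0.45 ± 0.20 (SE; unadjusted p = 0.0525), and in 2-APB against control 0.19. Leaving out control 3 gave 0.69 and 0.43, and leaving out control 2 gave 0.28 and 0.025. P4HB, the partner subunit and a disulfide isomerase, varied little around a mean of 11794 normalized counts, with a log2 fold change of -0.02 in SKF-96365 against control.

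VEGFA (ENSG00000112715, chr6:43770184-43786487, plus strand), the main growth factor of blood vessels, had 725, 623 and 817 normalized counts in 2-APB libraries, 729, 642 and 635 in SKF-96365 libraries, and 597, 651 and 745 in control libraries. The 3 groups overlapped, and no library stood apart. The log2 fold change was 0.01 in SKF-96365 against control, with a 95% interval of -0.30 to 0.32, and 0.12 in 2-APB against control, or 0.02 to 0.22 with 1 library left out. ADM (ENSG00000148926, chr11:10304680-10307397, plus strand) encodes adrenomedullin, a vasodilator peptide. It had 1089, 1126 and 1013 in 2-APB libraries, 964, 1202 and 1245 in SKF-96365 libraries, and 945, 739 and 1275 in control libraries. Its controls spanned the values of both drug groups, and its log2 fold changes were 0.23 in SKF-96365 and 0.16 in 2-APB, each against control. Leaving out control 3 gave 0.43 and 0.36, whereas leaving out control 2 gave 0.041 and -0.031.

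Receptors for these ligands, apart from the neuropilins, were low in most libraries. The VEGF receptor gene KDR had 47.0 normalized counts in control 3 and at most 2.06 in any other library, and FLT1 had 45.9 in control 3 and at most 5.92 elsewhere. FLT4 had 242 in control 3 and at most 43.4 elsewhere. RAMP2 and RAMP3, which with CALCRL form the adrenomedullin receptors, were at 0 in all 9 libraries, and CALCRL reached at most 15.4. The neuropilin gene NRP2, a coreceptor of VEGF, had a log2 fold change of 0.37 in SKF-96365 against control. Of the 14 ligand and receptor genes of the VEGF and adrenomedullin families, 8 were tested and 0 were called. ADM2, which encodes a related peptide, had the largest difference, at 1.02 ± 0.39 (SE; unadjusted p = 0.0253) in SKF-96365 against control, with control 1 and 2 at 43.1 and 39.6 and control 3 at 131.

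BNIP3 (ENSG00000176171, chr10:131966455-131982013, minus strand) encodes a receptor for mitophagy on the outer mitochondrial membrane. Its libraries ran against those of SLC2A3: it had 1247, 1397 and 2007 normalized counts in 2-APB libraries, 2114, 955 and 969 in SKF-96365 libraries, and 1382, 1678 and 1116 in control libraries. SKF-96365 1 and 2-APB 3 were highest and SKF-96365 2, SKF-96365 3 and control 3 lowest, so the SKF-96365 group held both the top and the bottom value. SKF-96365 1 and 2-APB 3 were the highest pair in 6.44% of tested genes, and the 3 libraries lowest for BNIP3 were the lowest 3 in 17.6%. BNIP3 was 1 of 8 members in each count.

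The BNIP3 log2 fold change was -0.13 ± 0.30 (SE) in SKF-96365 and 0.15 in 2-APB, each against control. On recovered reads, without SKF-96365 3, edgeR gave 0.15 for SKF-96365 against control, the opposite sign. Limma without that library was positive too, at 0.050. Of 44 listed BNIP3 pseudogenes the highest, BNIP3P11, reached 30.7 normalized counts. BNIP3L, its paralog and also a mitophagy receptor, had 2532, 2586 and 2847 in 2-APB libraries, 3364, 2786 and 3125 in SKF-96365 libraries, and 2261, 2108 and 2809 in control libraries. Its log2 fold change was 0.38 in SKF-96365 against control, past an unadjusted p of 0.05 and not called. PHB2 and FUNDC1, further mitophagy genes, had -0.06 and -0.30.

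HIF1A (ENSG00000100644, chr14:61695513-61748259, plus strand) encodes the oxygen-labile alpha subunit of HIF-1, whose transcript is not the main point of its control. It had 2959.8, 3217 and 2461 normalized counts in 2-APB libraries, 3198, 4146 and 4491 in SKF-96365 libraries, and 3593, 4277 and 3941 in control libraries. All 3 libraries given 2-APB lay below all controls, as in 1 of 8 members, beside 3.97% of tested genes. Means were 2879 ± 384 in 2-APB, 3945 ± 669 in SKF-96365 and 3937 ± 342 in control libraries (SD, n = 3 each).

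The HIF1A log2 fold change in 2-APB against control was -0.46 ± 0.15 (SE), with an interval of -0.80 to -0.12, an unadjusted p of 0.0136 and a limma adjusted p of 0.9995. Leaving out 1 library at a time gave -0.54 to -0.35. In SKF-96365 against control it was -0.01, with an interval of -0.35 to 0.33. In 2-APB against SKF-96365 it was -0.45 ± 0.15 (SE; unadjusted p = 0.0149, adjusted p = 0.684), with 3217 in 2-APB 2 just above 3198 in SKF-96365 1. HIF1A-AS3, an antisense gene at the locus, had 3.16 to 27.8 normalized counts. The strand setting of the counting is not given in the sources used here, so reads of the pair cannot be told apart.

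CA9 and EGLN3, widely used as hypoxia markers, were near 0 in every library. CA9 (ENSG00000107159, chr9:35673856-35681159, plus strand), a cell-surface carbonic anhydrase, had 0, 0 and 0.986 normalized counts in 2-APB libraries, 1.75, 3.08 and 0 in SKF-96365 libraries, and 3.16, 2.03 and 2.09 in control libraries. EGLN3 (ENSG00000129521, chr14:33924231-34462774, minus strand), a HIF prolyl hydroxylase that HIF itself raises, had 6.58, 1.72 and 0.986 in 2-APB libraries, 3.49, 0 and 0 in SKF-96365 libraries, and 0, 1.01 and 0 in control libraries. These values rest on 13 reads of CA9 and 14 of EGLN3 in 8 libraries. All 3 CA9 values in 2-APB libraries lay below all controls, at 0 or 0.986 against 2.03 to 3.16 normalized counts. That order rests on 0, 0 and 1 reads against 3, 2 and 2, too few to compare, and 3.97% of tested genes had it. Neither gene entered the test, and at this depth no fold change is given.

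**Figure D3:**
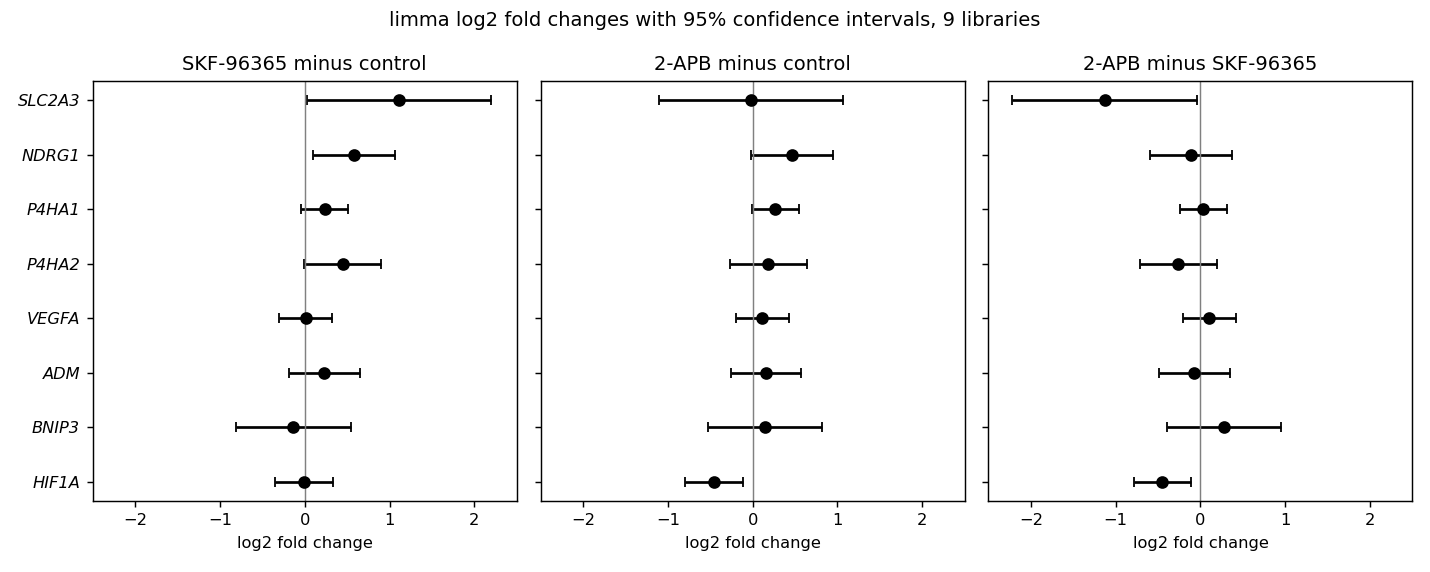
Log2 fold changes (x axes) of the 8 tested genes (rows) from limma, as points with 95% confidence intervals, for SKF-96365 minus control, 2-APB minus control and 2-APB minus SKF-96365. Intervals exclude 0 for SLC2A3 and NDRG1 in the first panel, HIF1A in the second and SLC2A3 and HIF1A in the third, and none passed adjustment over 17492 genes.

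The other parts of the HIF system showed no call either. Of 15 genes for subunits, oxygen sensors and cofactors, 14 were tested and 0 called. In SKF-96365 against control 5 were positive and 9 negative, with a median log2 fold change of -0.05, and in 2-APB 3 were positive and 11 negative, with a median of -0.12. ARNT, the common partner, had a mean of 1008 normalized counts, VHL 648, and the oxygen sensors EGLN1 and EGLN2 132 and 182. HIF3A reached at most 3.04.

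CREBBP, a histone acetyltransferase that HIF recruits, had 1323, 1463 and 1305 normalized counts in 2-APB libraries, 1309, 1225 and 1174 in SKF-96365 libraries, and 1747, 2077 and 1404 in control libraries. All 3 SKF-96365 libraries lay below all controls, as for EGLN2, so 2 of 14 genes did so, beside 2.94% of tested genes. CREBBP had a log2 fold change of -0.48 ± 0.14 (SE; unadjusted p = 0.00741) in SKF-96365 against control and was not called. ARNT2, a relative of ARNT, had 0.84 in SKF-96365 against control, with control 2 at 50.7 and the other 8 libraries between 177 and 254. It was the 1 of 14 genes above all controls in each drug group, beside 3.26% under SKF-96365 and 3.61% under 2-APB. In 2-APB against control, ARNT2 and CREBBP were past an unadjusted limma p of 0.05, beside 2.8% of tested genes, and neither was called.

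A further list of 32 HIF-responsive genes, 30 of them tested, also had 0 calls in each comparison. In SKF-96365 against control 23 were positive and 7 negative, with a median log2 fold change of 0.29 and a range of -0.31 to 0.97. In 2-APB against control 20 were positive and 10 negative, with a median of 0.08, and in 2-APB against SKF-96365 10 were positive and 20 negative, with a median of -0.16. All libraries of a drug group lay above all controls in 5 of the 30 under SKF-96365, beside 3.26% of tested genes, and in 5 under 2-APB, beside 3.61%. KDM3A and KDM4B, histone demethylases raised by HIF, were in both counts and are shown as examples chosen after their values were seen. KDM3A had 1023, 976 and 996 in 2-APB libraries, 1240.4, 1038 and 1117 in SKF-96365 libraries, and 913, 882 and 960.1 in control libraries. KDM3A and KDM4B had log2 fold changes of 0.30 and 0.34 in SKF-96365 against control.

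Some genes of that list had the library orders seen for SLC2A3 and BNIP3. The highest 3 libraries were SKF-96365 2, SKF-96365 3 and control 3 in 9 of the 30, beside 16.4% of tested genes. LOXL2, PFKFB3, BHLHE40 and STC2 were among these. The same 3 libraries were lowest in 2 of the 30, AK4 and SLC16A3, beside 17.6% of tested genes. Control 1 and control 2 were the lowest 2 libraries in 7 of the 30, beside 8.43% of tested genes. STC2, a secreted glycoprotein, had 448, 464 and 539 normalized counts in 2-APB libraries, 659, 1503 and 1525 in SKF-96365 libraries, and 408, 358 and 1548 in control libraries. The highest 2 were SKF-96365 1 and 2-APB 3 in 4 of the 30, beside 6.44% of tested genes. These were PDK1, ANGPTL4, FAM162A and HILPDA. PDK1 had 931, 996 and 1573 in 2-APB libraries, 1540.0, 768 and 847 in SKF-96365 libraries, and 877, 839 and 728 in control libraries. STC2 and PDK1 are named here as examples chosen after their values were seen.

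ANGPTL4, a lipase inhibitor, and LOX, a collagen cross-linking enzyme, had the largest differences of that list in SKF-96365 against control, at 0.97 ± 0.57 and 0.93 ± 0.43 (SE). Both rested in part on control 2, which had 113 normalized counts of ANGPTL4 against 466 and 452 in the other controls, and 1829.9 of LOX against 5933 and 7754.

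**Figure D4:**
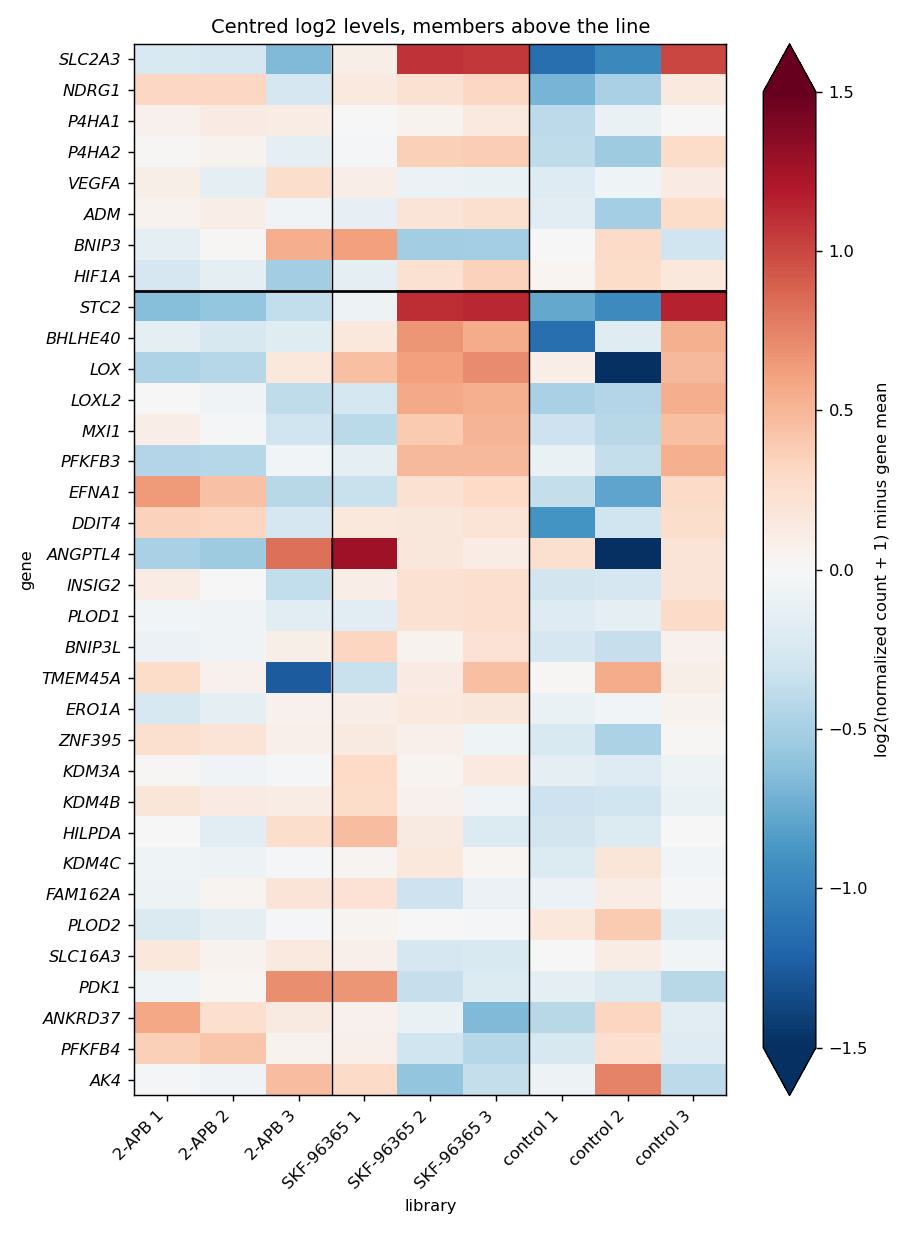
Centred log2(normalized count + 1) of the 8 tested genes (above the black line) and 26 further HIF-responsive genes with a mean of at least 50 (rows) in the 9 libraries (columns), with lower genes sorted by how far they moved with SLC2A3. Colours end at -1.5 and 1.5, and SKF-96365 2, SKF-96365 3 and control 3 are red in the rows from STC2 to PFKFB3.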

How the data were processed

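The deposited table holds 1 normalized signal value per gene and library, which the authors made from gene counts with DESeq2 (version not stated), per the submitters' processing notes. How reads were aligned and counted, the build and the strand setting are not given in the sources used here. Within each library 100% of values were whole multiples of 1 step within 0.001, so whole reads (14786059 to 19026545) were recovered in 8 libraries. The step of SKF-96365 3, at 0.992, was the nearest to 1, and count models left that library out by choice. Steps of 2-APB 3 (0.986) and control 2 (1.014) were also near 1, and both libraries were kept.

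Symbols were matched by Ensembl identifier for 60463 genes, with 130 more from GENCODE 29, which also gave coordinates and exon lengths. The main test was limma 3.58.1 with an intensity trend (R 4.3.3), on log2(normalized count + 1). It was also tried on simulated counts, which held no library split like the one seen here. The main test covered 17492 genes with at least 10 in at least 3 of 9 libraries. It had 3 two-sided contrasts and Benjamini-Hochberg adjustment over all tested genes. Fold changes on this scale understate those of low genes. Alternatives were other pseudocounts (0.5 and 5), filters, scalings and variance models, left-out libraries, a replicate block, edgeR 4.0.16 and DESeq2 1.42.0.

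All 10 members were named. Of each other list the named genes were the one with the highest mean, the 2 with the largest SKF-96365 against control differences and close relatives of a member. Other genes were named after their values were seen. A gene that this rule names is not reported here. The members and lists were chosen with earlier results of these data known. Likeness to SLC2A3 used 12373 genes, and promoters came from RefSeq (GRCh38.p14).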

Additional observations from a re-analysis of the deposited data

How the results depend on the processing

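Over 24 member comparisons and 528 alternative values, 495 kept their direction and their side of the threshold, 23 changed sign and 10 passed the threshold. Many of these values kept their direction by construction. A change of filter, variance model or block, or leaving out libraries outside the groups compared, does not move the fold change. The edgeR and DESeq2 fits left out SKF-96365 3, whereas the main limma fit used all 9 libraries. Genes called in SKF-96365 against control numbered 0 with limma (699 at an unadjusted p under 0.05), 0 with edgeR (258) and 2 with DESeq2 (241). With limma and without SKF-96365 3, they numbered 0 (248). They numbered 0 to 173 when 1 library was left out, with 173 without control 3, and 4823 without both control 3 and SKF-96365 1. In 2-APB against SKF-96365 they numbered 0 with limma (1277), 0 with edgeR (492), 1 with DESeq2 (483), 4 with only those groups in the fit, 0 to 4 with 1 library left out (4 without control 3), and 2283 without both libraries. In 2-APB against control they numbered 0 with limma (489), with edgeR (367), with DESeq2 (350) and with any library left out. Without SKF-96365 3, limma had 376 at an unadjusted p under 0.05 there. The member median was 0.45 without both libraries in SKF-96365 against control. In 2-APB against control it was 0.065 to 0.35 with 1 library left out and 0.35 without both.

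Without both libraries, which were left out because they stood with other groups, limma called 27.6% of genes in SKF-96365 against control. Its log2 fold changes were 2.12 for SLC2A3, 0.86 for NDRG1, 0.82 for P4HA2, 0.55 for ADM and -0.66 for BNIP3, with adjusted p of 0.000145 to 0.0355. In 2-APB against SKF-96365 it called 13.1% of genes, with -1.46 for SLC2A3, -0.59 for HIF1A, -0.39 for P4HA2 and 0.66 for BNIP3 (adjusted p of 0.00061 to 0.0464). These p-values are too small, because the libraries were picked from the data.

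Signs changed as follows, and the cause was not tested. In SKF-96365 against control HIF1A was 0.023 with upper-quartile scaling, 0.14 without both libraries and -0.11 to 0.14 with 1 left out. VEGFA was -0.062 to 0.10 with 1 left out. BNIP3 was -0.51 to 0.061 with 1 left out. It was 0.15 with edgeR and with DESeq2, both without SKF-96365 3, and 0.050 with limma without that library. In 2-APB against control SLC2A3 was 0.021 with upper-quartile scaling, 0.0098 with quantile scaling, 0.67 without both and -0.40 to 0.67 with 1 left out. BNIP3 was -0.056 to 0.29 with 1 left out and -0.0043 without both, and ADM was -0.031 to 0.36. In 2-APB against SKF-96365 P4HA1 was -0.0014 to 0.078 with 1 left out and -0.0014 without both, and NDRG1 was -0.20 to 0.077.

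With the replicate number as a block, limma called 0, 0 and 0 genes in SKF-96365 against control, 2-APB against control and 2-APB against SKF-96365 (717, 431 and 1259 at an unadjusted p under 0.05), so the block changed no call. Deviations of 9 same-numbered pairs correlated at -0.35 to 0.50, with 3 over 0.1. Pairs with different numbers ranged from -0.57 to 0.48. Because both kinds of pair spanned a like range, these values cannot tell whether same-numbered samples shared a culture or a batch.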

Other observations

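Among 12 collagen and prolyl hydroxylase genes, 7, all of them collagens, had the library split of SLC2A3. Their highest libraries were SKF-96365 2, SKF-96365 3 and control 3, a pattern that 16.4% of all tested genes had. COL6A1 had 1153, 1220.4 and 907 normalized counts in 2-APB libraries, 912, 1684 and 1606 in SKF-96365 libraries, and 769, 416 and 1683 in control libraries, with a log2 fold change of 0.73 in SKF-96365 against control. P4HA3, the least expressed catalytic subunit, had a lower mean in SKF-96365 than in control libraries, with 20.1, 36.0 and 42.7 in SKF-96365 libraries and 49.5, 86.2 and 48.0 in control libraries. Its log2 fold change was -0.89 ± 0.36 (SE; unadjusted p = 0.0312), and 0 of these 12 genes were called by limma.

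Of 7 other genes of carbonic anhydrases and pH transport, 6 were tested, 4 had a mean of at least 50 normalized counts, and 0 were called. SLC4A7, a sodium bicarbonate importer, had 1808, 2003 and 1984 normalized counts in 2-APB libraries, 2435, 3443 and 3752 in SKF-96365 libraries, and 1834, 1387 and 2956 in control libraries. Its log2 fold change was 0.69 ± 0.25 (SE; unadjusted p = 0.020) in SKF-96365 against control. Between 2-APB and SKF-96365 it was -0.71 (unadjusted p = 0.0172), with all 2-APB libraries below, as in 8.79% of tested genes. SLC16A1, a lactate transporter, had a mean of 2941 and a log2 fold change of -0.05 in SKF-96365 against control. CA13, a cytosolic carbonic anhydrase, had -0.80, with control 2 at 202.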
